A study of Danio rerio with 2 samples.

Results

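On the arrays of this study 10 genes of the zebrafish red blood cell were followed: 6 enzymes of heme synthesis (alas2, alad, uros, urod, cpox and fech), the mitochondrial iron importer slc25a37, the anion exchanger slc4a1a, the membrane skeleton gene epb41b and the carbonic anhydrase gene cahz. They were found as the probe sets whose single gene symbol in the platform annotation was one of these 10 names. The rule found 10 probe sets of 15502, with 1 probe set for each gene, and no probe set named a member together with another gene. None of the 10 identifiers carried a suffix for shared probes. The platform annotation gave an accession for 8 of the 10 probe sets, and tied those of alad and slc25a37 to their genes by symbol and Entrez gene number alone. No genome positions are given, since the sources used here name no build for the probe sets.

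The study compared 2 groups of zebrafish embryos, taken 24 hours after fertilization, each with 1 Affymetrix zebrafish array of whole-embryo total RNA. Morpholinos are synthetic antisense molecules that keep a chosen transcript from being spliced or translated. One group had been given a morpholino against DrC1q-like, a gene whose name likens it to the C1q component of complement, and the other a control morpholino with 5 mismatches to it, at about 5 ng per embryo in both. The stated purpose was to learn which genes and pathways depend on DrC1q-like. The labels give no mutant or transgenic line for either group, and the sources used here do not say how many embryos went into each RNA sample. With 1 array per group there was no replicate and no test between the groups, so every ratio below describes these 2 arrays. The arrays also differed in the recorded dates of hybridization and scanning, so processing and group cannot be told apart. In whole-embryo RNA, fewer cells of a type and less RNA per cell cannot be told apart either.

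Heme is the iron-holding ring that lets hemoglobin carry oxygen. It is built by a chain of enzymes that begins in the mitochondrion, passes through the cytosol and returns to the mitochondrion, where iron is inserted at the last step. Red cells need this chain in large amount, together with an anion exchanger in the membrane, a protein skeleton that holds the membrane in shape, and carbonic anhydrase, which interconverts carbon dioxide and bicarbonate. In zebrafish, mutants with few, pale or fragile red cells led to several of these genes: sauternes to alas2, yquem to urod, dracula to fech, frascati to slc25a37, retsina to slc4a1a and merlot to epb41b. The alad, uros, urod and cpox enzymes work in other cells too, so in a whole embryo their RNA need not come from blood.

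Of the 8 genes measured as set out below, 7 read lower with the C1q-like morpholino and alad read higher. Of all measured genes 48.8% read lower. Among the 7 lower genes epb41b was measured only through the control array, so it had to read lower. Of the 7 genes at or above the floor on both arrays 6 read lower, where 50.5% of all such genes did. The members were chosen with earlier results of these data known, and they are too few to set against these shares. Before any floor was applied, 8 genes had the lower signal and 2, alad and slc25a37, the higher signal on the C1q-like morpholino array. This count takes in fech and slc25a37, whose signals lie under the floor set out below. For slc25a37 the C1q-like morpholino signal of 32.8 was only just under it. Without a floor the median log2 ratio of all 8793 genes was 0.06. For ratios, signals below 33.3 were raised to that floor, the median signal over both arrays, since low MAS5 signals are mostly background. Genes at or above it on 1 array or both counted as measured. Of the 10 genes 8 were measured, 7 of them at or above the floor on both arrays, and fech and slc25a37 lay below it on both. The log2 ratio of C1q-like over control morpholino ranged from -1.01 for slc4a1a to 0.94 for alad.

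**Figure D1:**
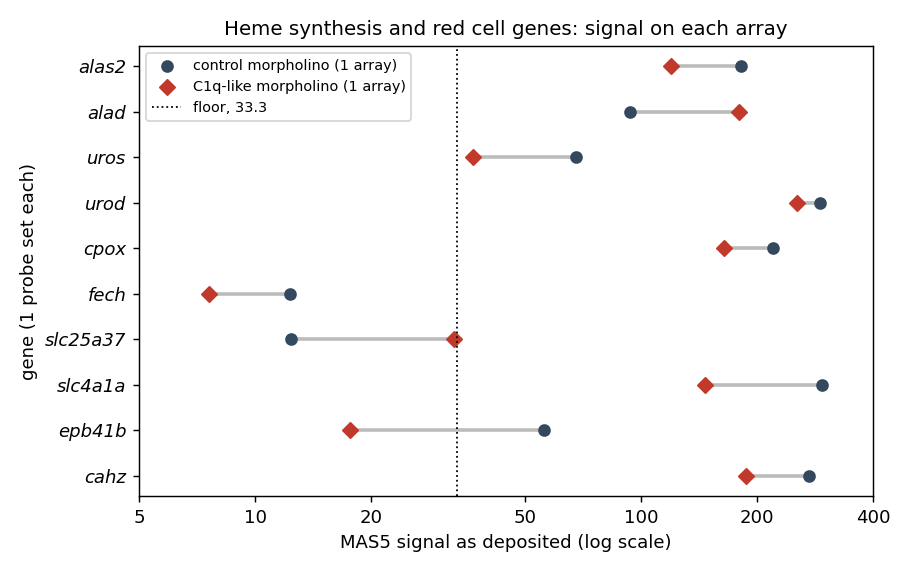
The deposited signal of each of the 10 genes on the control array (circles) and the C1q-like morpholino array (diamonds) is drawn on a log axis, with the floor of 33.3 as a dotted line. The diamond lies left of the circle for 8 genes and right of it for alad and slc25a37, and both points of fech and slc25a37 lie left of the floor.

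The first enzyme of the chain in red cells is the erythroid aminolevulinate synthase encoded by alas2, which joins glycine and succinyl-CoA in the mitochondrion. Its probe set (Entrez gene 64607) read 119.7 after the C1q-like morpholino and 181.9 after the control. This made alas2 1.52-fold lower, a log2 ratio of -0.60. Of all 5958 measured genes 13.8% had a ratio as low or lower. In rank among the probe sets of its own array, which does not depend on how the arrays were scaled, alas2 stood at percentile 80.4 against 84.9.

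The second enzyme, encoded by alad, joins 2 molecules of aminolevulinate into porphobilinogen in the cytosol. It went the other way, with signals of 179.5 for the C1q-like morpholino and 93.5 for the control (Entrez gene 550338). The ratio was 1.92-fold higher, a log2 ratio of 0.94, and 2.23% of measured genes had one as high or higher. Its rank was percentile 86.0 after the C1q-like morpholino and 74.1 after the control. The difference in log2 ratio between alad and the step before it, alas2, was 1.54.

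The next step, hydroxymethylbilane synthase, was not analysed here. The enzyme after it is the uroporphyrinogen synthase encoded by uros, which closes the ring. For uros the signals were 36.7 with the C1q-like morpholino, just above the floor, and 68 with the control (Entrez gene 404731). This was 1.85-fold lower, with a log2 ratio of -0.89, and 5.99% of measured genes were as low or lower. The difference in log2 ratio between alad and uros, both cytosolic enzymes, was 1.83.

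The decarboxylase gene urod acts last in the cytosol and had the ratio closest to 1 among the 8 measured genes. It read 254.2 after the C1q-like morpholino and 291.6 after the control (Entrez gene 30617), 1.15-fold lower with a log2 ratio of -0.20. The coproporphyrinogen oxidase gene cpox, whose enzyme acts in the mitochondrion, read 163.9 against 219.7 (Entrez gene 321294). Its ratio was 1.34-fold lower, a log2 ratio of -0.42, and 21.5% of measured genes were as low or lower.

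The last step, insertion of iron by the ferrochelatase encoded by fech, could not be read. Its probe set (Entrez gene 58215) had signals of 7.6 and 12.3, both well under the floor, so no ratio is given. Iron enters the mitochondrion through the carrier encoded by slc25a37, also called mitoferrin. The signal of slc25a37 was 32.8 with the C1q-like morpholino, just under the floor, and 12.4 with the control (Entrez gene 387000), so it too has no ratio. Of the 6 enzymes 5 were measured, 4 with ratios below 1 and alad above, and their median log2 ratio was -0.42.

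The membrane and gas transport genes were lower on the C1q-like morpholino array. The anion exchanger encoded by slc4a1a swaps chloride for bicarbonate and anchors the membrane skeleton. It read 146.2 after the C1q-like morpholino and 293.9 after the control (Entrez gene 84703), 2.01-fold lower with a log2 ratio of -1.01. This was the lowest ratio of the 8 measured genes, and 3.99% of all measured genes were as low or lower. Its rank was percentile 83.4 against 90.1.

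The skeleton gene epb41b encodes a protein that ties spectrin and actin to the membrane. It read 17.6 with the C1q-like morpholino, under the floor, and 55.9 with the control (Entrez gene 326287). The ratio is therefore a bound, at least 1.68-fold lower (log2 ratio -0.75 with the floor). It was measured only through the control array, so any ratio it could show had to be below 1. The carbonic anhydrase gene cahz, a marker of embryonic red cells in zebrafish, read 187.2 against 272.5 (Entrez gene 30331). This was 1.46-fold lower, with a log2 ratio of -0.54.

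Past 2-fold there was 1 measured member lower, slc4a1a, where 4.1% of all 5958 measured genes were at least 2-fold lower. There were 0 members at least 2-fold higher, where 1.68% of measured genes were. The nearest genes on the other side of the limit were alad at 1.92-fold higher and uros at 1.85-fold lower. With 8 genes, a single gene past the limit is a share too coarse to set against these percentages. Of the 344 measured genes past 2-fold 70.9% were lower, against 84.8% with each array centred on its median, 60.4% with lowess centring and 57.7% with quantile normalization. That majority turned with the floor, to 45.2% lower with the floor at the 25th percentile and 44.4% with none.

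The genes were more alike in sign than in size. They were chosen with earlier results of these data known, so the comparisons here describe the list and do not test it. Among the 8 measured genes 7 had ratios below 1, where 48.8% of all measured genes did, and the median log2 ratio was -0.57 against 0.01 for all measured genes. Over the 7 genes at or above the floor on both arrays, 6 had ratios below 1, where 50.5% of the 4977 genes of that kind did, and the median was -0.54 against -0.01. As with the related lists below, 7 or 8 genes are too few to set against these shares. The 8 genes ranged in mean signal from 31.4, set by epb41b, to 272, as geometric means of both arrays. Apart from epb41b and uros, each stood at signal percentile 74.1 or higher on both arrays. The range therefore takes in many genes dimmer than most of the 8. In that range were 4192 measured genes, with a median log2 ratio of -0.04, and 53.1% of them had ratios below 1. The middle 90% of these genes lay between -1.01 and 0.80, so slc4a1a stood at the lower edge of that span and alad above it.

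**Figure D2:**
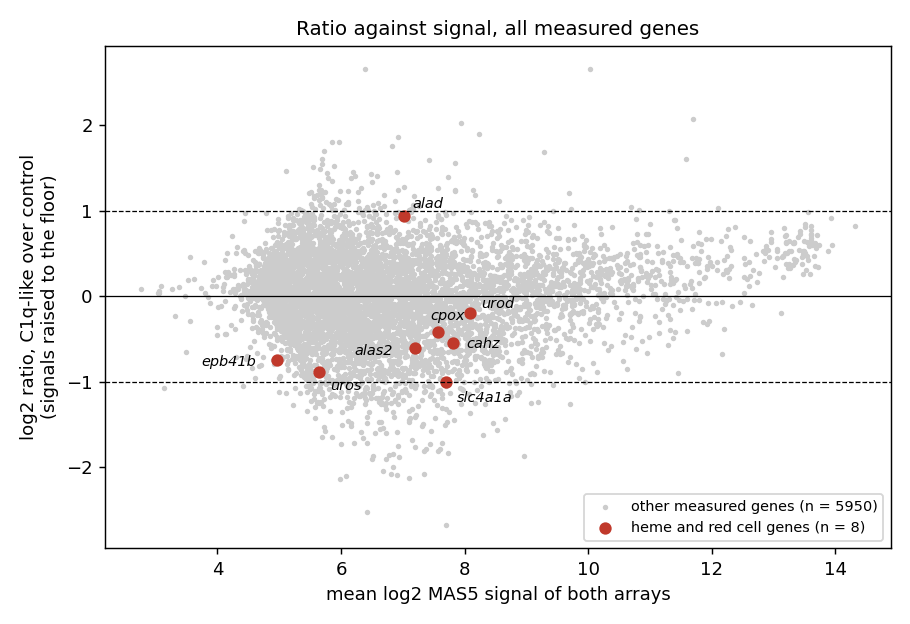
Each measured gene is a point, with the mean log2 signal of both arrays across and the log2 ratio of C1q-like over control morpholino upward, and dashed lines mark 2-fold. The 8 heme and red cell genes are in red: 7 lie below 0, slc4a1a on the lower dashed line, and alad just under the upper one.

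Genes read by several probe sets gave a measure of error between probe sets, which does not cover variation between embryos. Over 505 genes with 2 measured probe sets in that signal range, the SD of a log2 ratio between probe sets of 1 gene was 0.47, and 2 such probe sets differed by a median of 0.41. Probe sets with a suffix for shared probes were kept in this measure. With epb41b at its bound, 6 of the 8 measured genes had a log2 ratio larger in size than this SD, and urod and cpox did not. Among all measured genes in the range 38.2% did. The 6 include epb41b, which was measured only through the control array, and the 38.2% also takes in genes measured through 1 array. None of the 10 has a second probe set, so none could be checked in this way on its own.

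Each gene kept its sign under the 3 scalings tried (median centring, lowess centring and quantile normalization), in 24 of 24 values. The values of epb41b among these could not turn, since it was measured only through the control array. The other alternatives could hardly turn a sign here, since each gene has 1 probe set and another floor leaves a gene above it as it was. With the floor at the 75th percentile uros and epb41b lay below it on both arrays. For alad the log2 ratio ranged from 0.82 to 1.09 and was past 2-fold with lowess centring (1.09) and quantile normalization (1.08). For slc4a1a it ranged from -1.12 to -0.86, and was short of 2-fold with lowess centring (-0.89) and quantile normalization (-0.86). The value for alas2 ranged from -0.72 to -0.44, that of cahz from -0.66 to -0.42 and that of urod from -0.31 to -0.07. With the floor at the 25th percentile of signals or with none, the log2 ratio of epb41b was -1.67 and that of slc25a37, now measured, was 1.40. With the lower floor fech stood at -0.01 and with none at -0.69.

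**Figure D3:**
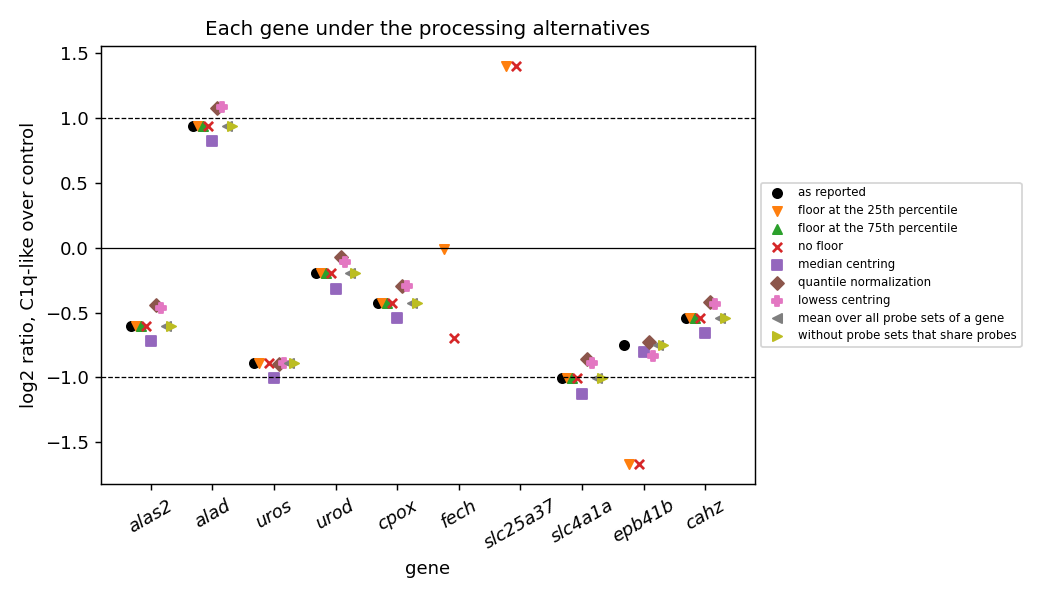
The log2 ratio of C1q-like over control morpholino is drawn for each of the 10 genes as reported (black circles) and under 8 processing alternatives (other symbols), with dashed lines at 2-fold. The points of alad stay above 0 and those of alas2, uros, urod, cpox, slc4a1a, epb41b and cahz below it, while fech and slc25a37 have points under the lower floor and no floor only.

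Other genes of heme supply were close to equal on both arrays. Of a list of 28 heme pathway partners 10 were analysed and measured, 5 with ratios above 1 and 5 with ratios below, none past 2-fold, and their median log2 ratio was 0.07. The share below 1 among all measured genes was 48.8%. The housekeeping aminolevulinate synthase alas1, the paralogue of alas2 used outside red cells, read 213.3 after the C1q-like morpholino and 186.1 after the control, a log2 ratio of 0.20. On these arrays alas1 thus differed in sign from alas2, which had -0.60. The value of alas1 was smaller than the SD of 0.47 between probe sets of 1 gene. It ranged from 0.08 with median centring to 0.33 with quantile normalization. The highest of these genes was slc25a39, a mitochondrial carrier, at 0.33 (109.8 against 87.3), although its second probe set gave -0.48 (32.6 against 46.5). That second probe set was measured only through the control array, so its ratio had to lie below 1. The lowest was clpxa, encoding a subunit of a mitochondrial protease, at -0.28 with dim signals (28.5 against 40.3, the first under the floor). It was measured only through the control array, so its ratio had to lie below 1. Over the 9 partners at or above the floor on both arrays, 5 lay above 1 and 4 below, with a median of 0.16.

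Genes of iron handling and heme turnover had ratios in both directions. Of 26 listed, 11 were analysed and 9 measured, 6 with ratios above 1 and 3 with ratios below, none past 2-fold, for a median log2 ratio of 0.25. Of all measured genes 48.8% had ratios below 1, and 9 genes are too few to set against that share. Under the alternatives the median lay between 0.10 (no floor) and 0.25 (quantile normalization). The serum iron carrier gene tfa was the highest at 0.59 (2726 against 1814.6). The lowest was aco1, whose protein is the cytosolic aconitase that doubles as an iron sensor, at -0.57 (31.1 against 49.3, the first under the floor). It was measured only through the control array, so its ratio had to lie below 1. Over the 8 genes at or above the floor on both arrays, 6 lay above 1 and 2 below, with a median of 0.28.

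Other genes of the red cell membrane and its skeleton were divided in sign. Of 32 listed, 14 were analysed and 13 measured, 6 with ratios above 1 and 7 with ratios below, none past 2-fold, for a median log2 ratio of -0.02. The share below 1 among all measured genes was 48.8%. Among the 13 genes epb41l3a (43.5 against 18.1) was measured only through the C1q-like morpholino array, so its ratio had to lie above 1. Over the 12 others, at or above the floor on both arrays, 5 lay above 1 and 7 below, with a median of -0.04. The lowest was the carbonic anhydrase gene ca2, a relative of cahz, at -0.91 (318.3 against 598.8), and its second probe set gave -0.57 (74.2 against 109.9). The value of cahz was -0.54, and other carbonic anhydrase genes were not among the lists. The highest by its brightest probe set was epb41l3b, from the same protein family as epb41b, at 0.64 (631.7 against 405). The gene stom of this list was at 0.03, although its second probe set gave 0.71 (226 against 138). Many genes of this list also serve other tissues.

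**Figure D4:**
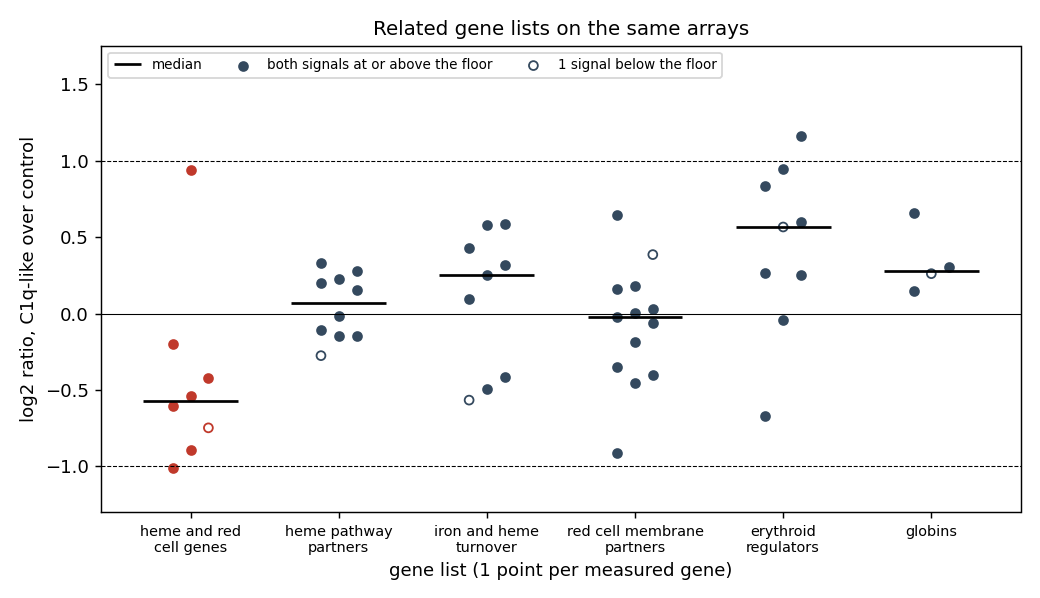
Each point is the log2 ratio of C1q-like over control morpholino of 1 measured gene, filled where both signals reached the floor and open where 1 did not, with the median of each list as a bar and dashed lines at 2-fold. The median of the heme and red cell genes lies at -0.57, those of the heme pathway partners, iron and heme turnover, membrane partners, erythroid regulators and globins at 0.07, 0.25, -0.02, 0.57 and 0.28.

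Red cell RNA was present on both arrays, as the globins show. The embryonic globin genes hbae3 and hbbe3 read 15610.7 and 7208.7 with the C1q-like morpholino and 9913.6 and 5850.5 with the control. Of 5 globin genes with a probe set of their own 4 were measured, with a median log2 ratio of 0.28 against -0.57 for the 8 heme and red cell genes. Among them hbaa1 (39.9 against 17.5) was measured only through the C1q-like morpholino array, so its ratio had to lie above 1. The 3 others were at or above the floor on both arrays, hbae3 at 0.66, hbbe3 at 0.30 and hbbe2 lowest at 0.15. The ratios of the bright globins depended on scaling. For hbae3 the log2 ratio was 0.02 with quantile normalization and 0.12 with lowess centring, and for hbbe3 it was -0.04 and -0.12. The globin median was 0.08 and 0.12 under these scalings. The median of the 8 genes minus that of the globins was -0.85. Under the alternatives it lay between -1.23 (no floor) and -0.51 (quantile normalization), with -0.56 after lowess centring. The values of epb41b and hbaa1, whose signs were fixed in opposite directions, enter the 2 medians. Over the genes at or above the floor on both arrays the medians were -0.54 for the heme and red cell genes and 0.30 for the globins.

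Erythroid regulators were mostly dim, and most of those measured had ratios above 1. Of 22 listed, 15 were analysed and 9 measured, 7 with ratios above 1 and 2 with ratios below. Of all measured genes 48.8% had ratios below 1, and 9 genes are too few to set against that share. The median log2 ratio of the 9 was 0.57. That median is the value of stat5a (49.3 against 13.1), which was measured only through the C1q-like morpholino array and so had to lie above 1. Over the 8 regulators at or above the floor on both arrays, 6 lay above 1 and the median was 0.43. The factor gata1a, which switches on red cell genes, read 77.7 after the C1q-like morpholino and 34.8 after the control, the latter just above the floor, a log2 ratio of 1.16 and the 1 gene of the list past 2-fold. The lowest was ldb1a, encoding an adaptor of the factor complex that holds Gata1, at -0.67 (142.1 against 225.9). Its second probe set lay under the floor on both arrays (20.5 against 18.1). The median of the list was 0.27 with the floor at the 25th percentile or none, and -0.04 with the floor at the 75th percentile, where 2 regulators were measured.

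Of 5 measured myeloid markers 3 had ratios above and 2 below 1, from 1.27 for the peroxidase gene mpx to -0.14 for lcp1. The other probe sets of mpx lay under the floor on both arrays. The median log2 ratio of the 5 markers, 0.37, is that of spi1b (43 against 23.5), measured only through the C1q-like morpholino array and so bound to lie above 1. Without spi1b the median was 0.30. That value rests in part on coro1a at 0.73 (157.3 against 95), whose second probe set gave -0.09 (60.1 against 64.1). Of 8 endothelial markers listed, 4 were analysed and 2 measured, kdrl at -0.68 and fli1 at -0.32, both on dim signals. For kdrl the C1q-like morpholino signal was 33.3, equal to the floor, against 53.3. The gene fli1 was measured only through the control array, and its second probe set lay under the floor on both (23.7 against 24.4). Of all measured genes 48.8% had ratios below 1, and the myeloid and endothelial lists are too small to set against that share. The part of these cell types in the values of the heme and red cell genes was not tested.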

How the data were processed

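The authors deposited a linear signal intensity for every probe set on each array, and the submitters' processing notes name MAS5. Its version and scaling target are not given in the sources used here. For the C1q-like morpholino array and the control the mean without the highest and lowest 2% was 98.8 and 99.4, and of 15502 probe sets 51.2% and 49.0% reached the floor. Detection calls were not used here. Of 42 settings in the deposited experiment files, which hold text and other values, 2 differed, the recorded dates of hybridization and scanning.

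Signals were raised to the floor of 33.3 and log2 ratios taken. Of the probe sets 10795 named 1 gene, 135 several and 4572 none. Symbols were updated through Entrez numbers with the RefSeq gene table (10711 found), and each of 8793 genes was read through its brightest probe set. Of 139 names in 7 related lists 65 were matched. The named genes were all members, the highest and lowest of each related list and those past 2-fold, the paralogues alas1 and ca2, gata1a, hbae3 and hbbe3. The genes hbaa1, stat5a, spi1b, coro1a, epb41l3a and stom were named after their values were seen. The members and lists were chosen with earlier results of these data known. Counts are given at 2-fold, with no test. Steps were tested on simulated data, with planted changes larger than the members' reported ratios and in bright probe sets only. That test does not cover dim signals or ratios of the members' size. The number of arrays limits the precision. Software was Python 3.11.15, numpy 2.4.6, pandas 2.3.3, statsmodels 0.14.6 and matplotlib 3.10.9.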

Additional observations from a re-analysis of the deposited data

How the results depend on the processing

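No paired analysis was possible because each group has 1 array. Tried instead were a lower floor (25th percentile, 12.2), a higher one (75th percentile, 93.1), no floor, 3 scalings (median centring, lowess centring with a span of 0.3, quantile normalization), averaging the probe sets of a gene, and dropping those that share probes. The last 2 leave the members, with 1 probe set each, as they were. Under these 8 the members' median log2 ratio stayed below 0, between -0.69 (median centring) and -0.43 (quantile normalization). Median centring took the median of all measured genes from 0.01 to -0.10. The 1 member at least 2-fold lower became 2 with the lower floor, no floor or median centring and 0 after quantile normalization or lowess centring. The 0 at least 2-fold higher became 1 with the lower floor, no floor, quantile normalization and lowess centring. Over the whole array 100 measured genes passed 2-fold upward and 244 downward. These counts were 545 and 449 with the lower floor, 31 and 103 with the higher floor, and 1116 and 893 with none, and 63 were higher after median centring. Medians near 0 changed sign. That of the heme pathway partners was -0.047 after median centring and -0.043 as a mean over probe sets. That of the membrane partners was 0.0019 with the higher floor, 0.0032 after quantile normalization and 0.0011 as a mean over probe sets. That of the erythroid regulators was -0.036 with the higher floor. Signals near background limit fech, slc25a37, epb41b and uros, and 1 array per group limits every value.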
